A study of Mus musculus with 30 samples.

Results

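Tr1 cells and Th1 cells that both switch on interleukin 10 (IL-10) were compared here: 3 libraries of IL-10 positive Tr1 cells, grown with IL-27, were set against 3 libraries of IL-10 positive Th1 cells, grown with IL-12. These 6 libraries were taken by their titles from the 30 libraries of the study, whose 10 groups of 3 are the IL-10 positive and IL-10 negative cells of 5 T helper cultures. All cells came from C57BL/6 mice that carry a Foxp3-GFP reporter, which marks regulatory T cells, and an IL-10 Thy1.1 reporter, which puts Thy1.1 on cells with an active Il10 gene. Naive GFP-negative CD4 T cells were stimulated with 2.5 ug/ml anti-CD3 beside irradiated splenocytes depleted of CD4 cells, at 6 feeders per T cell. Tr1 cultures received 25 ng/ml IL-27 and Th1 cultures 20 ng/ml IL-12. After 72 h, viable TCRβ+ CD4+ GFP-negative cells were sorted by the reporter, and 2000 cells per library were lysed for SMART-Seq2-type sequencing of polyadenylated RNA. The IL-10 negative cells of the same cultures, 3 libraries each, served as a second pair of groups. The protocol wording gives Thy1.1+ for both compartments, so positive and negative follow the titles. Nothing in the labels ties the replicates to separate cultures or mice, and p-values therefore cover only the spread from library to library, which may be technical.

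IL-10 is a cytokine that restrains inflammation, and several kinds of T helper cell can make it. IL-12 acts through Il12rb1 and Il12rb2 and is known to drive T cells to the Th1 fate mainly through STAT4 and the factor T-bet, with interferon gamma as the hallmark product. IL-27 acts through Il27ra and gp130 (Il6st), signals through STAT factors including STAT3, and is used to raise type 1 regulatory (Tr1) cells, which make IL-10 without Foxp3. Both producers are thus alike in the reporter and differ in the cytokine that raised them.

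The Tr1 IL-10 positive libraries held 4394704 to 5391667 RSEM expected counts and the Th1 IL-10 positive libraries 7540038 to 9434381. Levels are given as CPM, read counts scaled to a common library total by TMM, as mean ± SD over 3 libraries, and changes as log2 fold changes, Tr1 over Th1. The ± of a log2 fold change is its size divided by the square root of the edgeR test's F statistic. It is only an approximate standard error and is rough for genes with counts near 0. A gene was called at an adjusted p below 0.05 in the quasi-likelihood test of edgeR, adjusted by Benjamini and Hochberg's method. Of 12611 genes tested, 7015 were called (55.6%), 3473 of them higher (27.5%) and 3542 lower (28.1%) in Tr1 cells, so a call alone sets no gene apart. A gene list whose calls split evenly between higher and lower is likewise no different from all genes. The libraries of the groups did not overlap in 58.9% of genes, with Tr1 above in 28.8% and below in 30.1%. The median log2 fold change over all genes tested was 0.02. At a fold of 2 or more, 1468 genes were called higher (11.6%) and 1276 lower (10.1%). In counts scaled only by library total, Tr1 replicate 18 stood apart from its group. It differed from the other Tr1 IL-10 positive libraries by 10.9 and 12.03 chi-square units per degree of freedom. The value was 3.25 between those libraries and 2.77 to 3.64 within the Th1 group. Its top 10 genes held 32.756% of counts, against 24.871% and 24.644% in replicates 16 and 17. On the log CPM scale it was hardly apart, with correlations of 0.971 and 0.973, against 0.975 between the others. Without Tr1 replicate 18, 2918 genes were called higher and 3454 lower. Leaving out Th1 replicate 6 gave a like result, 2940 higher and 3508 lower. Summed CPM of the T cell identity markers lay between 5907 and 6112 in Tr1 and between 6714 and 6947 in Th1 IL-10 positive libraries.

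The Il10 gene itself (chr1:131019845-131024970, mm10) was lower in the Tr1 producers. Il10 stood at 39.4, 53.5 and 49.2 CPM in the Tr1 libraries, against 389.5, 366 and 386 CPM in the Th1 libraries. Each Tr1 library lay far below each Th1 library, and the log2 fold change was -3.00 ± 0.12 (edgeR, adjusted p = 4.26e-23). IL-10 negative cells gave 0.474 CPM for Tr1 and 5.73 CPM for Th1, a log2 difference of -3.41 (-4.21 without Tr1 IL-10 negative replicate 18), so the culture order was the same on both sides of the gate. Among the other IL-10 positive cultures, Il10 averaged 815 ± 57.7 CPM in Th2, 51.6 ± 1.90 CPM in pathogenic Th17 and 23.5 ± 1.71 CPM in Th17 cells (SD, n = 3 each), which puts Tr1 next to pathogenic Th17 and well under Th1. Thy1, whose product is also the reporter's label, had 239.6, 249 and 291 CPM in Tr1, against 1176, 1187 and 1309 CPM in Th1 libraries (log2 fold change -2.24 ± 0.07). Reads of the reporter and of the cell's own Thy1 could not be told apart in this row of the tables.

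**Figure D1:**
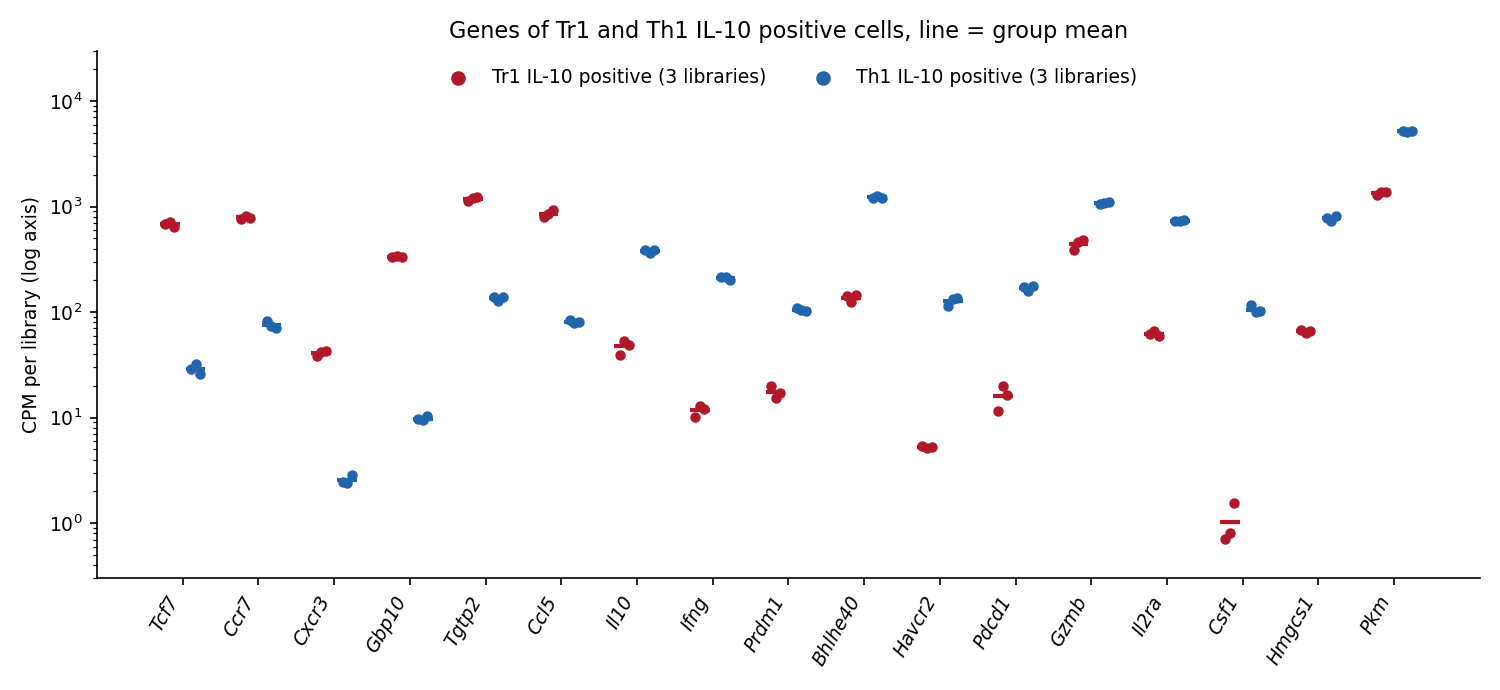
CPM of 17 genes in each library on a log axis, with Tr1 IL-10 positive cells (red) left of Th1 IL-10 positive cells (blue) and a line at each group mean of 3. For each gene drawn, the groups do not overlap: Tcf7, Ccr7, Cxcr3, Gbp10, Tgtp2 and Ccl5 lie above in Tr1, and the other 11 lie below.

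Of 8 genes for the IL-12 and IL-27 receptors and their kinases, 2 were called higher and 4 lower in Tr1 cells, with a median log2 fold change of -0.10. The receptor chains moved in opposite directions. Il27ra, the chain specific to IL-27, had 205, 225 and 204 CPM in Tr1, against 133, 125 and 129.7 CPM in Th1 libraries (log2 fold change 0.71 ± 0.07, adjusted p = 1.09e-11). Il12rb2, the chain that gives a cell its IL-12 response, had 577, 568 and 584 CPM in Tr1, against 897, 928 and 892 CPM in Th1 libraries (-0.65 ± 0.07, adjusted p = 6.47e-10). Each chain was thus higher in the culture that held its ligand, with no overlap between groups. Il6st, the gp130 chain that IL-27 and IL-6 share, was nevertheless lower in Tr1, at 79.0 ± 11.3 CPM, against 182 ± 10.4 CPM in Th1 (-1.21 ± 0.11). Il12rb1, the other IL-12 chain, averaged 98.1 CPM in Tr1 and 175 CPM in Th1 cells (-0.83 ± 0.07).

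Among the 7 STAT factors, which carry cytokine signals to the nucleus, 3 were called higher and 3 lower. Stat3 had 354, 376 and 413 CPM in Tr1, against 353, 362 and 360.1 CPM in Th1 libraries; these ranges overlapped and the gene was not called (0.09, adjusted p = 0.260). Stat4, the IL-12 factor, had 323, 321 and 335 CPM in Tr1, against 369, 385 and 370.2 CPM in Th1 libraries, a small fall (-0.20, adjusted p = 0.0137) that lost its call without Th1 replicate 5 (-0.18, adjusted p = 0.0519). Stat5a, which relays IL-2 signals, fell by 1.16 on the log2 scale. In the feedback list of 11 genes, 1 was called higher and 4 lower. Socs1, an inhibitor of JAK kinases, rose to 37.4 ± 2.10 CPM in Tr1, against 21.4 ± 3.38 CPM in Th1 cells (0.80 ± 0.13), while Socs3 was not called (0.16, adjusted p = 0.0921). Cish, a STAT5 target that damps IL-2 signalling, had 12.2 CPM or less in each Tr1 library and 85.9 CPM or more in each Th1 library (-3.04 ± 0.12).

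Interferon-inducible GTPases, which coat and disrupt compartments that hold microbes, made up most of the genes that rose in the interferon gamma list. Of 27 genes tested, 18 were called higher and 4 lower, with a median of 0.60, beside 0.02 over all genes. Gbp10 had 331, 339 and 333 CPM in Tr1, against 9.64, 9.40 and 10.4 CPM in Th1 libraries, the second-highest named rise of the comparison (5.09 ± 0.18, adjusted p = 4.34e-23). Tgtp2 had 1122, 1199.9 and 1235 CPM in Tr1, against 140.4, 127 and 140.4 CPM in Th1 libraries (3.13 ± 0.11, adjusted p = 5.50e-24). In both genes the lowest Tr1 library lay several fold above the highest Th1 library. Irgm1 averaged 541 CPM in Tr1 and 130.3 CPM in Th1 cells (2.05 ± 0.08), and Gbp6 827 CPM in Tr1 and 192 CPM in Th1 cells (2.10 ± 0.10). Gbp6 and Gbp10, and Tgtp1 and Tgtp2, are near-identical pairs, so the split of reads within each pair is uncertain. The family did not move as a block. Gbp2, a guanylate-binding protein of the same family, had 2588, 2830.3 and 2719 CPM in Tr1, against 7582, 7755 and 7424 CPM in Th1 libraries, a clear fall (-1.48 ± 0.08, adjusted p = 4.47e-19). Gbp7 also fell (-0.80 ± 0.07), as did Irf8 (-0.36) and Psme2 (-0.25), while Gbp3, Gbp5, Tapbp, Psmb8 and Psmb9 were not called.

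The stretches just before the start sites of these genes are shown because GTPase genes that rose and fell can be set side by side. Each is the 150 bases that end 1 base before the start site, 5′ to 3′ on the gene's strand, from RefSeq on GRCm38.p6, with matches to the gamma-activated site (GAS, TTCNNNGAA, which STAT dimers can bind) or to the interferon-stimulated element (a pair of GAAA repeats 2 bases apart) on either strand in capitals. Genes that rose are Igtp (chr11:58199406-58199555, plus strand), Irgm2 (chr11:58214827-58214976, plus), Irgm1 (chr11:48871421-48871570, minus), Tgtp1 (chr11:48992247-48992396, minus) and Tgtp2 (chr11:49064213-49064362, minus). Genes that fell are Gbp2 (chr3:142620513-142620662, plus) and Gbp7 (chr3:142530186-142530335, plus).
Igtp: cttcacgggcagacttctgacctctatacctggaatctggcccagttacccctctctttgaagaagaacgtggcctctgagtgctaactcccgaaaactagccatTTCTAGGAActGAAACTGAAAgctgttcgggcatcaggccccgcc
Irgm2: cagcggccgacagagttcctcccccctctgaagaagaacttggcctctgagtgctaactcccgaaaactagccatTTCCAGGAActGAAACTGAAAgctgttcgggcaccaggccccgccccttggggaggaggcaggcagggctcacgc
Irgm1: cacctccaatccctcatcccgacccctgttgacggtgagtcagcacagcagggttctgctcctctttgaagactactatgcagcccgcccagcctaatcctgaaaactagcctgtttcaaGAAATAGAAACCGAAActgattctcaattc
Tgtp1: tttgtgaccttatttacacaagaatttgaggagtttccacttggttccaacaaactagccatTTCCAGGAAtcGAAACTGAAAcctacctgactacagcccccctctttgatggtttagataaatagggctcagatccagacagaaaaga
Tgtp2: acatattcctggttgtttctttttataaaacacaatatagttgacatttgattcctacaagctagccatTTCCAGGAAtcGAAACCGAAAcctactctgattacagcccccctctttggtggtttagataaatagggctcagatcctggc
Gbp2: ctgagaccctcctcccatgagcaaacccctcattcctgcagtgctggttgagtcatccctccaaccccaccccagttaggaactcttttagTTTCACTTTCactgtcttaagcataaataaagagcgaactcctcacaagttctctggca
Gbp7: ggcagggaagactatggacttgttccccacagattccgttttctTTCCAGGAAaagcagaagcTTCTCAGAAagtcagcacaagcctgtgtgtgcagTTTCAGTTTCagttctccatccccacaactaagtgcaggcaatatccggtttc

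Igtp, Irgm2, Tgtp1 and Tgtp2 held a GAS followed closely by an interferon-stimulated element. Irgm1 held overlapping interferon-stimulated elements and no GAS in this stretch. Gbp2 and Gbp7, which fell, held elements too. Over windows of 250 bases before to 50 after the start, a GAS stood in 9 of the list's 23 windows (39.1%), beside 8.30% of all 32851 promoter windows, and an interferon-stimulated element in 11 (47.8%), beside 3.44%. Only 10 of the 18 called-higher genes had a window, and Gbp6 and Gbp10 were not among them. Of these 10, 8 held at least 1 of the motifs, as did 3 of 4 called-lower genes and 3 of 5 not called. Among the few genes with a window, the motifs thus did not sort the genes by direction. A match describes letters in a window, not bound protein.

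The type I interferon list of antiviral genes split more evenly, with 12 of 24 called higher, 6 lower and a median of 0.15. Irf7, which amplifies interferon genes, rose to 49.7 ± 4.42 CPM in Tr1, against 20.7 ± 1.78 CPM in Th1 cells (1.26 ± 0.13). Rtp4, an interferon-induced inhibitor of viral replication, averaged 14.6 CPM in Tr1 and 2.08 CPM in Th1 cells (2.81 ± 0.29). Usp18, which removes ISG15 and dampens the interferon receptor, went the other way, at 44.7 ± 3.60 CPM in Tr1 and 188 ± 6.68 CPM in Th1 cells (-2.07 ± 0.10). Oas3, a sensor of double-stranded RNA, was lower too (-1.07 ± 0.13).

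The Th1 programme was lower in Tr1 cells for most of its listed genes. Of 14 tested, 11 were called lower and 2 higher, with a median of -0.87. Ifng, the Th1 hallmark cytokine, had 10.1, 12.8 and 12.2 CPM in Tr1, against 214, 214 and 200.3 CPM in Th1 libraries (-4.15 ± 0.14, adjusted p = 6.26e-23). Havcr2, which encodes the inhibitory receptor TIM-3, had 5.42, 5.21 and 5.32 CPM in Tr1, against 115, 132 and 135 CPM in Th1 libraries (-4.58 ± 0.17, adjusted p = 9.38e-23). Both sets of values were tight and far apart. Tbx21, which encodes T-bet, fell far less: 144, 148 and 138 CPM in Tr1, against 226, 295 and 274 CPM in Th1 libraries (-0.89 ± 0.12, adjusted p = 4.15e-08). Il18r1, the receptor by which Th1 cells sense IL-18, averaged 22.6 CPM in Tr1 and 270.3 CPM in Th1 cells (-3.59 ± 0.10). Cxcr3, a T-bet target that guides Th1 cells to inflamed tissue, ran against the list, with 38.4, 41.7 and 43.0 CPM in Tr1 and 2.45, 2.38 and 2.88 CPM in Th1 libraries (3.99 ± 0.17, adjusted p = 8.08e-22). Cxcr3 was the strongest rise of the list, and Ly6c2 (0.60) was the other gene called higher.

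**Figure D2:**
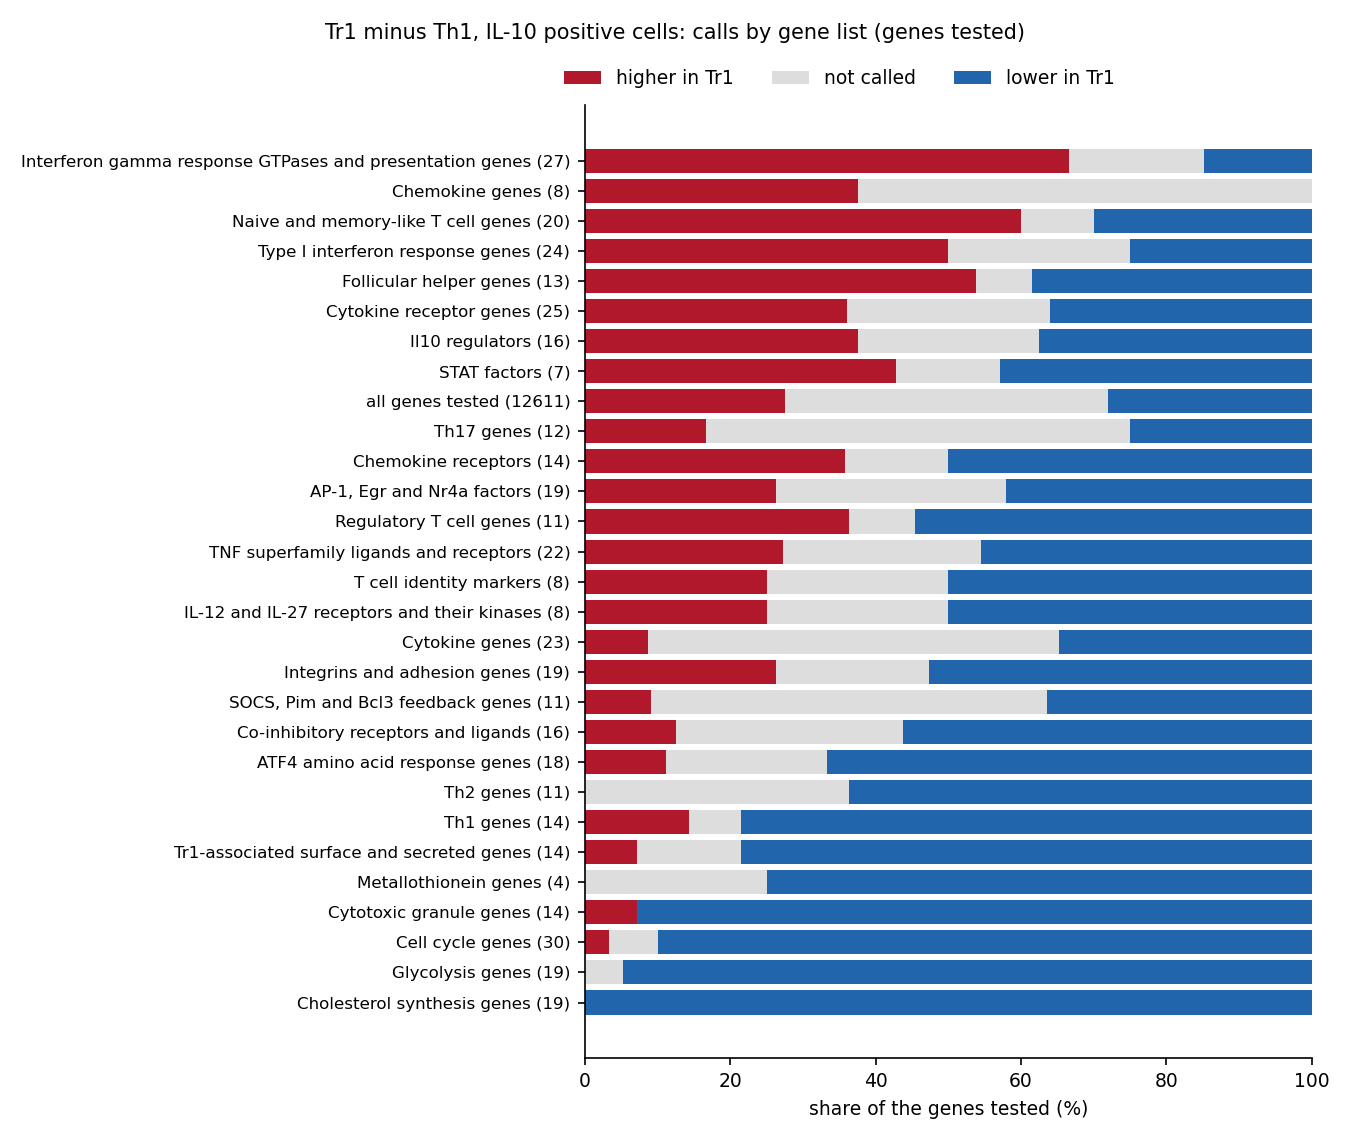
Share of tested genes called higher in Tr1 (red), not called (grey) and called lower in Tr1 (blue) for each gene list, with the number of genes tested in brackets and all 12611 genes as a row of their own. Interferon gamma genes have 18 of 27 called higher, and all 19 cholesterol synthesis genes are called lower.

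Of 16 factors known to act on Il10, 6 were called higher and 6 lower (median -0.05). All genes tested split about as evenly, with 27.5% called higher and 28.1% lower (median 0.02). Maf, a direct activator of Il10 in several T helper cells, had 46.4, 45.1 and 42.3 CPM in Tr1, against 37.0, 26.4 and 28.6 CPM in Th1 libraries, a rise without overlap (0.55 ± 0.12, adjusted p = 2.09e-04). Prdm1, which encodes the Il10 activator Blimp-1, had 19.8, 15.4 and 17.3 CPM in Tr1, against 109.9, 105 and 102 CPM in Th1 libraries (-2.60 ± 0.17, adjusted p = 2.79e-16). These activators of Il10 therefore differed in opposite directions between the producers. Bhlhe40, a known repressor of Il10 in Th1 cells, was low where Il10 was low, at 137 ± 10.4 CPM in Tr1 and 1221 ± 25.7 CPM in Th1 cells (-3.15 ± 0.09). Bach2, a repressor that opposes effector differentiation, had 189.7 ± 9.06 CPM in Tr1 and 65.1 ± 1.35 CPM in Th1 cells (1.54 ± 0.07). Ahr, a partner of Maf in Tr1 cells, was near the floor of detection, with 1.89, 0.801 and 0.886 CPM in Tr1 and 2.73, 2.38 and 1.63 CPM in Th1 libraries. Its groups overlapped and it was not called (-0.93, adjusted p = 0.102). It was called without the filter on low counts (-1.09, adjusted p = 0.0262) and without Tr1 replicate 16 (-1.39, adjusted p = 0.0489). Eomes, also near the floor with 7 counts over the Tr1 and 14 over the Th1 libraries, was not called either (-0.18, adjusted p = 0.882).

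Genes often used to describe Tr1 cells were mostly lower in the Tr1 producers than in the Th1 producers. Of 14 surface and secreted genes, 11 were called lower and 1 higher (median -1.05), and of 16 co-inhibitory receptors and ligands 9 were called lower and 2 higher (median -0.48). Lag3, which binds MHC class II and is used as a Tr1 marker, had 1042, 1156 and 1171 CPM in Tr1, against 1497, 1477 and 1532 CPM in Th1 libraries (-0.42 ± 0.06, adjusted p = 3.10e-07). Icos, a costimulator, averaged 371 CPM in Tr1 and 961 CPM in Th1 cells (-1.37 ± 0.06). Entpd1, which encodes the ATP-degrading enzyme CD39, averaged 35.2 CPM in Tr1 and 230.4 CPM in Th1 cells (-2.71 ± 0.12). The Lag3 difference was small beside these, although its libraries did not overlap. Pdcd1, which encodes PD-1, had 11.6, 20.0 and 16.4 CPM in Tr1, against 172, 160.1 and 178 CPM in Th1 libraries (-3.39 ± 0.11). Il21, a cytokine that sustains Tr1 cells, had 23.1 ± 4.31 CPM in Tr1 and 42.8 ± 2.51 CPM in Th1 cells (-0.87 ± 0.11). Il1r1, an IL-1 receptor gene, was the higher gene of this list, with 2.83, 0.401 and 1.99 CPM in Tr1 and 1.15, 0.226 and 0.501 CPM in Th1 libraries (1.48 ± 0.57, adjusted p = 0.0266). Its groups overlapped, and its call was lost when the contrast's libraries were fitted alone (adjusted p = 0.0991), when all libraries were thinned to the smallest total (adjusted p = 0.0511) and without Th1 replicate 5 or 6 or Tr1 replicate 16 or 18 (adjusted p = 0.0751 to 0.249). Without Th1 replicate 4 its log2 fold change was 2.18. Cd5 (0.72) and Cd274 (0.58), which encodes PD-L1, were higher among the co-inhibitory genes.

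Cytotoxic granule genes, which arm cells to kill targets, were called lower in 13 of 14 cases (median -1.79). Gzmb, the serine protease granzyme B, had 388, 458 and 484 CPM in Tr1, against 1057, 1075 and 1103 CPM in Th1 libraries (-1.28 ± 0.10, adjusted p = 9.37e-14). Prf1, the pore-former perforin, had 74.0 to 80.3 CPM in Tr1 and 243 to 259 CPM in Th1 libraries (-1.68 ± 0.09), and Nkg7, a granule membrane protein, averaged 620.0 CPM in Tr1 and 2301 CPM in Th1 cells (-1.89 ± 0.08). None of these genes was silent in Tr1 cells. Lamp1, a lysosomal membrane protein of nearly all cells, was the gene called higher, at 75.2 ± 12.9 CPM in Tr1 and 6.48 ± 0.573 CPM in Th1 cells (3.54 ± 0.27). It was singled out after its values were seen.

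Among 23 cytokine genes, 8 were called lower and 2 higher; the median was -0.87, or -0.17 with 5 genes that are at 0 in a group set at their bound. Csf1, the growth factor of macrophages, had 0.707, 0.801 and 1.55 CPM in Tr1, against 116, 99.6 and 102 CPM in Th1 libraries (-6.68 ± 0.20, adjusted p = 1.25e-26). Osm and Lif, cytokines that signal through gp130, fell by 2.47 and 2.42 on the log2 scale. Of 8 chemokine genes tested, 3 were called higher and none lower by edgeR (median 0.79); the call of Cxcl10, which averaged 1.80 CPM in Tr1 and 0.633 CPM in Th1 cells, was lost without Th1 replicate 5 or 6 or Tr1 replicate 16 or 17 (adjusted p = 0.0555 to 0.143). Ccl5, a chemokine that attracts T cells and monocytes, had 790.1, 855 and 925 CPM in Tr1, against 83.4, 78.9 and 80.3 CPM in Th1 libraries (3.41 ± 0.12, adjusted p = 7.13e-25). Its groups were tight and far apart. Of 14 chemokine receptors, 5 were called higher and 7 lower. Ccr7, which leads cells into lymph nodes, had 771, 823 and 783 CPM in Tr1, against 81.6, 74.0 and 70.5 CPM in Th1 libraries (3.40 ± 0.07, adjusted p = 2.79e-32). Cxcr6, a receptor of tissue-homing effector cells, had 19.7 CPM or less in each Tr1 library, against 581 to 621 CPM in Th1 libraries (-5.08 ± 0.14). Ccr8 (-5.26) and Ccr4 (-4.17) were lower too, while Cxcr3 (3.99) and Ccr9 (2.79), a gut-homing receptor, were higher. Ccr4 moved to -5.48 without Tr1 replicate 17.

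Of 25 cytokine receptor genes, 9 were called in each direction (median 0.10). Il2ra, the high-affinity IL-2 receptor chain, had 61.8, 65.9 and 58.9 CPM in Tr1, against 726, 737 and 746 CPM in Th1 libraries (-3.56 ± 0.07, adjusted p = 7.82e-32). Il2rb averaged 230.4 CPM in Tr1 and 1931 CPM in Th1 cells (-3.07 ± 0.06), and Il7r, the survival receptor for IL-7, averaged 37.9 CPM in Tr1 and 354 CPM in Th1 cells (-3.23 ± 0.12). Il2ra, Il2rb and Il7r thus all fell. Il6ra, the IL-6 receptor chain, went the other way, with 35.4, 26.2 and 28.4 CPM in Tr1, against 4.46, 5.66 and 6.39 CPM in Th1 libraries (2.43 ± 0.16). In the TNF family list of 22, 6 were called higher and 10 lower (median -0.72), and the T cell costimulators Tnfrsf9 (-2.58) and Tnfrsf4 (-1.98) were among the lower genes. Of 19 integrin and adhesion genes, 5 were called higher and 10 lower (median -0.95).

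Naive and memory-like genes were called higher in 12 of 20 cases and lower in 6 (median 0.51). Tcf7, which encodes TCF-1 and marks cells that can self-renew, had 681, 714 and 646 CPM in Tr1, against 28.9, 32.1 and 26.2 CPM in Th1 libraries (4.54 ± 0.08, adjusted p = 1.03e-33). The Tr1 libraries all lay far above the Th1 libraries. Lef1, the relative of Tcf7, differed far less (0.58 ± 0.06), and Id3, an inhibitor of E proteins, averaged 20.8 CPM in Tr1 and 6.56 CPM in Th1 cells (1.67 ± 0.18). Bcl2 (-2.09), a survival gene, and Satb1 (-0.99), a chromatin organiser, went the other way. Of 13 follicular helper genes, 7 were called higher and 5 lower (median 0.46). Tox, a nuclear factor of helper T cells, averaged 26.1 CPM in Tr1 and 3.37 CPM in Th1 cells (2.98 ± 0.18), Bcl6, the follicular helper master factor, was higher (1.09 ± 0.10), and Cd40lg, the signal that helps B cells, was lower at 5.09 CPM in Tr1, against 52.1 CPM in Th1 cells (-3.35 ± 0.15).

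In the Th2 list, 7 of 11 were called lower and none higher by edgeR (median -1.88, or -1.32 at the bound). Gata3, the Th2 master factor, averaged 55.2 CPM in Tr1 and 187 CPM in Th1 cells (-1.76 ± 0.09). In the Th17 list of 12, 2 were called higher and 3 lower (median 0.09, or 0.55 at the bound). In the regulatory T cell list of 11, 4 were called higher and 6 lower (median -0.27). Foxp3 was close to 0 in both groups, as the GFP gate requires, with 1.41, 2.00 and 0.665 CPM in Tr1 and 0.575, 0.226 and 0.626 CPM in Th1 libraries (1.53, adjusted p = 0.0377). Gpr83, a receptor gene of regulatory T cells, rose to 9.52 CPM in Tr1, against 1.94 CPM in Th1 cells (2.28 ± 0.26). Among 19 AP-1, Egr and Nr4a factors, 5 were called higher and 8 lower (median -0.34).

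Genes of cholesterol synthesis and glycolysis were lower in Tr1 producers. All 19 cholesterol synthesis genes tested were called lower, with a median of -2.80. Hmgcs1, which starts the pathway, had 67.7, 63.5 and 65.8 CPM in Tr1, against 773, 735 and 815 CPM in Th1 libraries (-3.56 ± 0.07, adjusted p = 7.56e-32). Fdps, which makes farnesyl diphosphate, averaged 49.4 CPM in Tr1 and 603 CPM in Th1 cells (-3.61 ± 0.08). The list's smallest fall was that of its master factor Srebf2 (-0.80 ± 0.09). Of 19 glycolysis genes, 18 were called lower and none higher by edgeR (median -1.97). Pkm, which makes pyruvate, had 1286, 1389 and 1386 CPM in Tr1, against 5195, 5109 and 5231 CPM in Th1 libraries (-1.94 ± 0.05). Slc16a3, which exports lactate, averaged 35.3 CPM in Tr1 and 312 CPM in Th1 cells (-3.14 ± 0.07). Pdk1, which holds back pyruvate oxidation, was the gene not called (0.12, adjusted p = 0.0940). Of 18 genes of the ATF4 amino acid response, 12 were called lower and 2 higher (median -0.54); Wars, a tRNA synthetase that interferon also induces, was higher at 460.3 CPM in Tr1, against 169 CPM in Th1 cells (1.45 ± 0.06). Of 4 metallothionein genes, 3 were called lower.

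Most cell cycle genes were lower in the Tr1 producers: 27 of 30 were called lower and 1 higher (median -0.69). Ccna2, a cyclin of DNA replication and mitosis, had 106, 97.8 and 88.2 CPM in Tr1, against 133, 125 and 138 CPM in Th1 libraries (-0.44 ± 0.08, adjusted p = 9.77e-06). Mki67, the proliferation marker, averaged 84.4 CPM in Tr1 and 113 CPM in Th1 cells (-0.43 ± 0.09). These shifts were small, and the groups did not overlap. Some genes of DNA synthesis, named because they had the smallest p of the list, fell further. Pcna, the replication clamp, fell by 1.80, Cdc6, which licenses replication origins, by 1.83 and Rrm2, which makes deoxynucleotides, by 1.13 on the log2 scale. Mcm4 and E2f1 of the same list were not called. Cdkn1a, an inhibitor of the cycle that is on the same list, fell to 3.86 CPM in Tr1, against 46.9 CPM in Th1 cells (-3.57 ± 0.21), and Tyms, which makes thymidylate, was the higher gene (0.73 ± 0.16).

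The strongest falls included genes with few or no counts in Tr1 producers and others that were well detected in both groups. Furin, a protease that matures cytokines and growth factors, had 14.4, 13.8 and 14.4 CPM in Tr1, against 1781, 1710.2 and 1798 CPM in Th1 libraries (-6.96 ± 0.08, adjusted p = 1.02e-39). Prnp, the prion protein gene, had 3.77, 2.80 and 3.32 CPM in Tr1, against 426, 404 and 408 CPM in Th1 libraries (-6.97 ± 0.11, adjusted p = 5.70e-35). Replicates were tight in each group, and the levels differed 124-fold for Furin and 125-fold for Prnp. Furin was higher in the other IL-10 positive cultures than in Tr1 as well, at 106 CPM in Th2, 190.1 CPM in Th17 and 419 CPM in pathogenic Th17 cells. Rufy4, an adaptor of autophagy, had 0 counts in Tr1 libraries and 489 in Th1 libraries, which is at least 94.3-fold lower when 0 is replaced by 3 counts over the group. On the same footing Sparc, a matrix protein gene, was at least 32.4-fold lower and nonagouti (a) at least 23.1-fold lower, with 0 counts in Tr1 and 168 and 120 in Th1 libraries. Tmprss6, a membrane protease known from the liver, had 1 count in Tr1 and 1155 in Th1 libraries, a Th1 over Tr1 ratio of 668 (95% exact counting interval 119.7 to 26407). Pigz had 2 counts in Tr1 and 1248 in Th1 libraries (ratio 361, 99.7 to 2983), and Eps8, an actin regulator, 2 counts in Tr1 and 654 in Th1 libraries (ratio 189, 52.1 to 1565). The Tr1 count of Tmprss6 came from replicate 18 and those of Eps8 from replicate 17. Leaving out that library moved the fitted log2 fold change to -11.64 for Tmprss6, against -9.10 in all libraries, and to -10.81 for Eps8, against -7.43, and with no Tr1 count left these fitted values are no bounds. Intervals and floors cover counting error only, since reads carry no molecular identifiers. Ffar2, a receptor for short-chain fatty acids (-7.63), Anxa1, which encodes the inflammation-damping annexin A1 (-6.79), and Rai14 (-6.65) completed the 12 lowest with Csf1. Without Tr1 replicate 17 Ffar2 moved to -8.69, and without Tr1 replicate 18 Anxa1 moved to -7.41 and Rai14 to -7.64.

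The strongest rises were smaller and included several low-level genes. Slc43a1, an amino acid transporter, led at 13.7, 16.4 and 10.6 CPM in Tr1, against 0, 0.113 and 0.752 CPM in Th1 libraries (5.46 ± 0.61, or 7.40 without Th1 replicate 6). Pou2af1, a coactivator of octamer factors that is best known from B cells, had 23.1, 20.0 and 15.7 CPM in Tr1, against 0.575, 1.47 and 0.376 CPM in Th1 libraries (4.52 ± 0.32, or 5.34 without Th1 replicate 5). These groups did not overlap. Bambi-ps1, a pseudogene whose reads may be shared with its parent, averaged 96.0 CPM in Tr1 and 5.18 CPM in Th1 cells (4.19 ± 0.16). Nr1d2, a nuclear receptor of the circadian clock (4.03 ± 0.37, or 4.69 when thinned), and Rnf144a, a ubiquitin ligase (3.82 ± 0.33), were also among the 12 highest. For 4 others the level in Tr1 was low or uneven: C87414 averaged 6.04 ± 5.18 CPM, Colec10, a collectin, had 4.24, 2.80 and 9.97 CPM, Igf1, insulin-like growth factor, 4.24, 4.21 and 11.7 CPM, and Zfp616, a zinc finger gene, 8.49, 6.61 and 4.65 CPM. In Th1 libraries they averaged 0.272, 0.329, 0.412 and 0.412 CPM. Replicate 18 was the highest in C87414, Colec10 and Igf1. Their log2 fold changes of 4.30, 4.17, 3.96 and 3.92 moved to 3.32, 3.45 and 3.26 for C87414, Colec10 and Igf1 without that library, and to 5.35, 3.53, 4.56 and 4.53 for C87414, Colec10, Igf1 and Zfp616 without Th1 replicate 5. Colec10 stood at 6.23 without Th1 replicate 4, and Igf1 at 4.55 when thinned. Olfactory and vomeronasal receptor genes, which T cells are not known to use, summed to 2942, 2978 and 4333 CPM in Tr1, against 885, 856 and 933 CPM in Th1 libraries, and 16911 to 17531 genes had a count in Tr1, against 15512 to 15932 in Th1 libraries. The part of these scattered low counts in the low-level rises was not tested.

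Markers of other cells were low in both groups. Summed CPM of B cell markers was 12.5 to 17.1 in Tr1 and 46.1 to 57.0 in Th1 libraries, with 2 of 9 tested genes called higher and 2 lower. In Th1 libraries most of it was H2-Ab1, an MHC class II gene, at 2.31 ± 0.376 CPM in Tr1 and 41.8 ± 3.91 CPM in Th1 cells, while Pax5 was at 0 in both groups. The class II genes did not move together: H2-Aa was called higher in Tr1, as was Bank1, and H2-Eb1 was not called. H2-Aa and Bank1 were low even so, since the whole Tr1 sum was 12.5 to 17.1 CPM. Myeloid markers summed to 74.0 to 76.9 CPM in Tr1 and 246 to 262 CPM in Th1 libraries, with 3 of 6 called lower. Most of this was Cst3, which many cells express. Itgam, an integrin gene of myeloid cells, was well detected too and lower in Tr1. Itgam averaged 14.6 CPM in Tr1 and 69.1 CPM in Th1 cells (-2.24 ± 0.18), without overlap. C1qa and S100a8 were at 0 in both groups, Lyz2 at 0 in Tr1 and S100a9 at 0 in Th1. NK cell markers summed to 106 to 124 CPM in Tr1 and 124 to 131 CPM in Th1 libraries (3 of 5 called lower), beside the fall of the cytotoxic genes. CD8 markers summed to 42.7 to 51.4 CPM in Tr1 and 30.3 to 36.5 CPM in Th1 libraries (both called higher). Plasma cell markers, nearly all Xbp1, summed to 58.5 to 78.0 CPM in Tr1 and 203 to 251 CPM in Th1 libraries (1 of 3 called lower), and erythroid and platelet markers to 0.222 to 4.01 CPM in Tr1 and 0 to 1.47 CPM in Th1 libraries (none tested). With the listed genes of other cells left out, 3469 genes were called higher and 3533 lower. In bulk libraries, fewer cells of a type and less RNA per cell cannot be told apart.

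The same cultures were then compared in their IL-10 negative cells, to ask which differences belong to the culture as a whole. There 5221 genes were called (41.4%), 2121 higher (16.8%) and 3100 lower (24.6%) in Tr1 cells. Of 3940 genes called in both compartments, 3828 had the same direction and 112 the opposite. All 19 cholesterol genes were again called lower (median -2.15, against a median of -0.03 over all genes), as were 18 of 19 glycolysis genes (median -1.51), and 23 of 27 interferon gamma genes were called higher (median 0.61). The interaction term, which tests the Tr1 minus Th1 difference in IL-10 positive cells against that in IL-10 negative cells, called 2319 genes (18.4%), 1412 with a more positive difference in positive cells (11.2%) and 907 with a more negative one (7.19%). This split was unsteady: without Th1 IL-10 positive replicate 6 it was 957 and 1134, and without Tr1 IL-10 positive replicate 18 it was 988 and 1120.

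**Figure D3:**
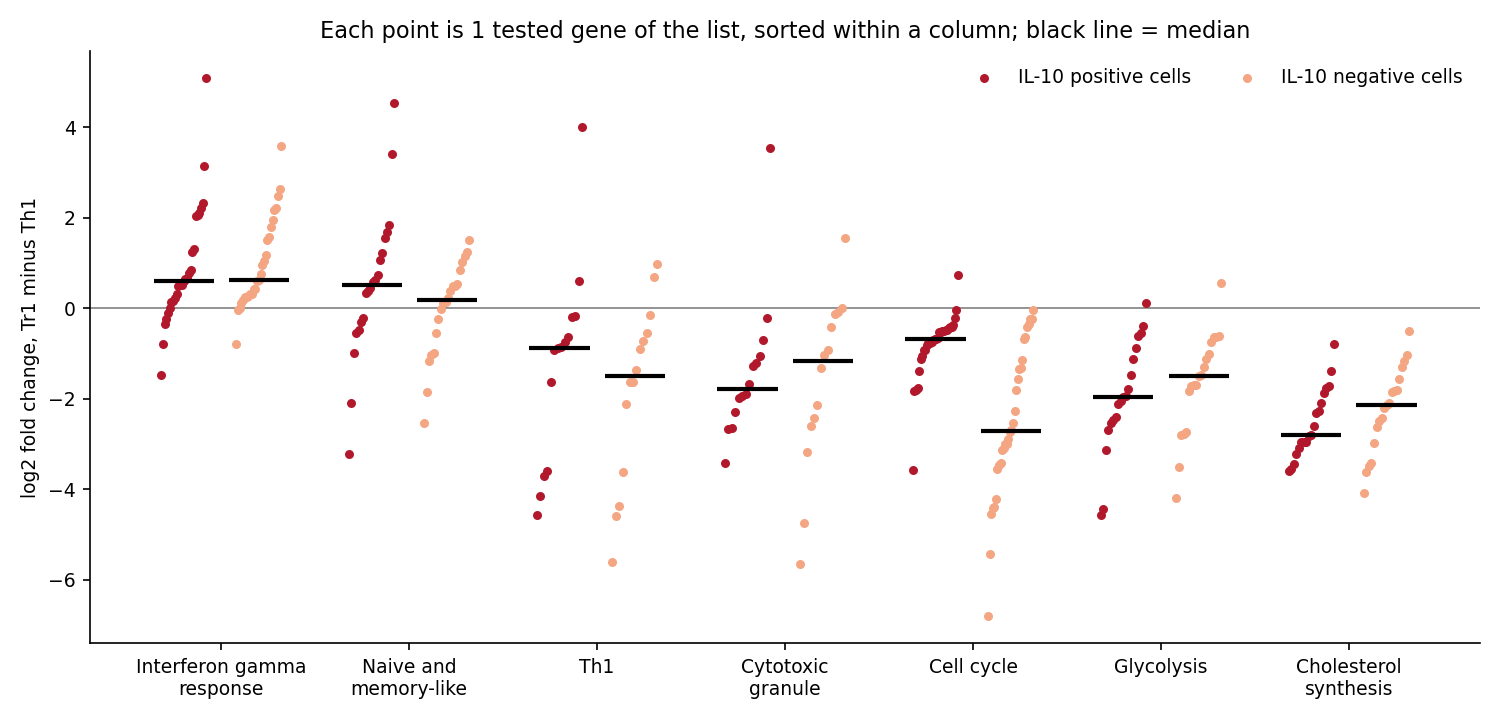
Log2 fold change, Tr1 minus Th1, of each tested gene of 7 lists in IL-10 positive cells (red) and IL-10 negative cells (orange), sorted within a column, with the median as a black line. Cell cycle genes have a median of -0.69 in IL-10 positive and -2.71 in IL-10 negative cells, while the cholesterol genes are all below 0 in both.

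Among the 7 lists drawn, cell cycle genes had the largest median interaction. In IL-10 negative cells 28 of 30 were called lower in Tr1 (median -2.71), and the interaction was called positive for 19 and negative for 2 (median 1.58, beside 0.06 over all genes). Ccna2 averaged 2.17 CPM in Tr1 IL-10 negative cells and 50.7 CPM in Th1 IL-10 negative cells, a difference of -4.55, and its interaction was 4.11. Ccnb2, a mitotic cyclin, averaged 62.8 CPM in Tr1 and 101 CPM in Th1 IL-10 positive cells, beside 1.25 CPM in Tr1 and 53.7 CPM in Th1 IL-10 negative cells (interaction 4.75 ± 0.24, adjusted p = 4.49e-18). Tr1 IL-10 negative cells were thus the group with little cyclin RNA, while the positive cells of both cultures held it. Gzmb followed the same order, at 2.25 CPM in Tr1 and 62.6 CPM in Th1 IL-10 negative cells (interaction 3.46).

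For Ccr7, Tcf7 and Cxcr3 the rise in Tr1 cells was larger in the IL-10 positive compartment. Ccr7 averaged 1142 CPM in Tr1 and 1158 CPM in Th1 IL-10 negative cells, with no call (-0.02, adjusted p = 0.831), and its interaction was 3.41. Tcf7 averaged 1569 CPM in Tr1 and 702 CPM in Th1 IL-10 negative cells (1.16), and its interaction was 3.39. The Th1 IL-10 positive cells were thus the group with low Ccr7 and Tcf7. Ephx1, an epoxide hydrolase, averaged 46.5 CPM in Tr1 and 6.45 CPM in Th1 IL-10 positive cells, beside 69.7 CPM in Tr1 and 77.1 CPM in Th1 IL-10 negative cells (interaction 2.99 ± 0.17). Folr4, a folate receptor family gene, fell in negative cells (-0.34) and rose in positive cells (1.26), with an interaction of 1.60 ± 0.09. Tubb2a, a tubulin, showed the reverse, with 31.8 CPM in Tr1 and 49.5 CPM in Th1 IL-10 positive cells, beside 175 CPM in Tr1 and 36.7 CPM in Th1 IL-10 negative cells (interaction -2.90 ± 0.15).

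**Figure D4:**
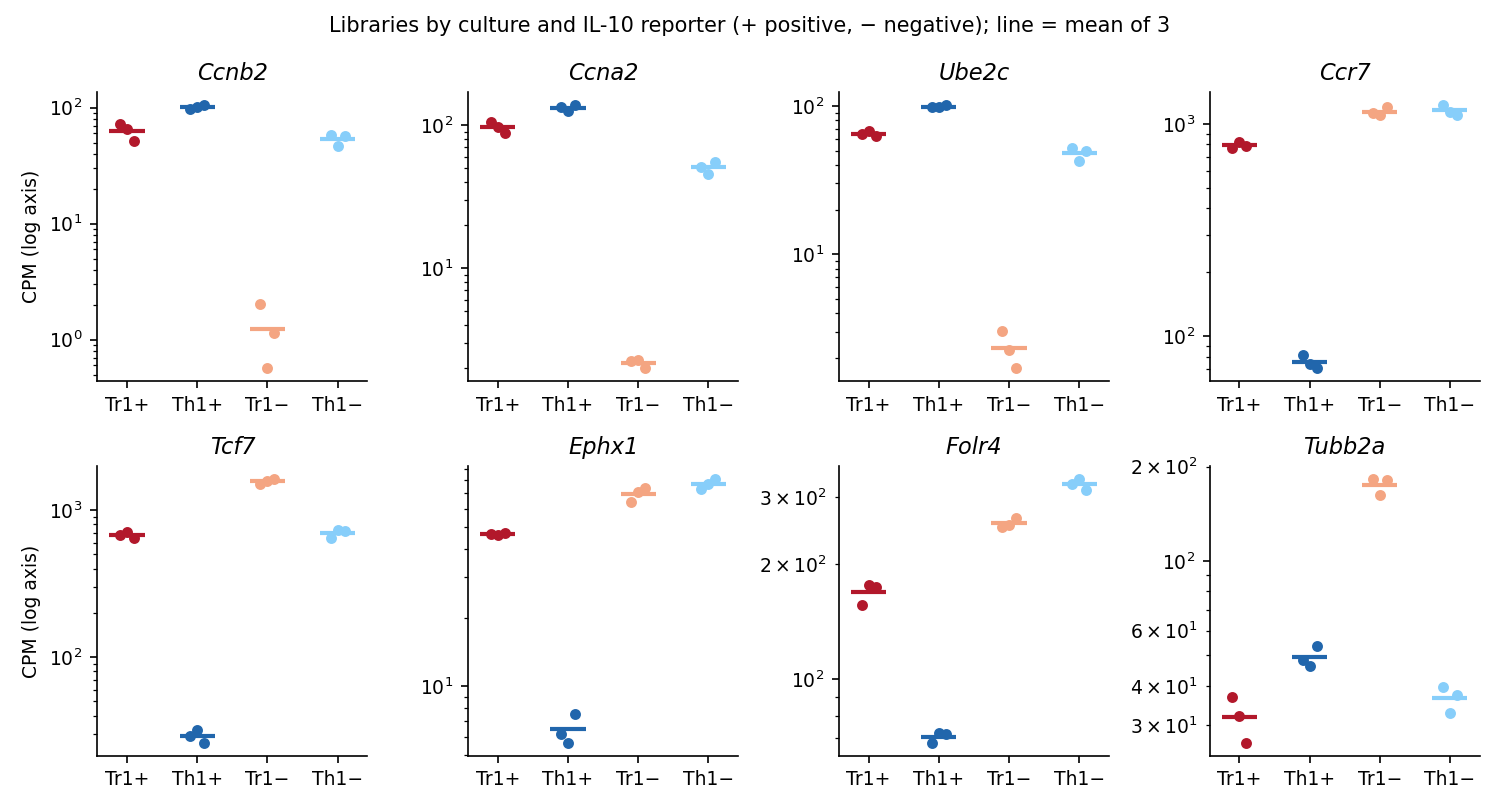
CPM per library on log axes for the 8 genes with the smallest interaction p, in Tr1 and Th1 IL-10 positive cells (Tr1+, Th1+) and Tr1 and Th1 IL-10 negative cells (Tr1−, Th1−), with lines at the means of 3. Ccnb2, Ccna2 and Ube2c are lowest in Tr1 IL-10 negative cells, Ccr7, Tcf7, Ephx1 and Folr4 are lowest in Th1 IL-10 positive cells, and Tubb2a is highest in Tr1 IL-10 negative cells.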

How the data were processed

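Per the submitters' processing notes, the authors used RSEM and the mm10 build; the RSEM version and strand handling are not given there. Per the file headers, the authors deposited RSEM expected counts and TPM per gene for each library; TPM served only as a side scale and no TPM value is printed. The 23420 genes of all 30 libraries (10 groups of 3) were read, expected counts were rounded to whole numbers, and filterByExpr kept 12611 genes. One edgeR 4.0.16 quasi-likelihood fit (R 4.3.3, limma 3.58.1) with TMM scaling and a mean per group gave each contrast, with Benjamini-Hochberg adjustment at 0.05. The deposited counts summed to 4394704 to 9434381 in the 6 libraries, and in simulated data of 12374 genes the IL-10 positive contrast recovered 20% of genes changed 1.25-fold, 60% at 1.5-fold, 86% at 2-fold and 100% at 4-fold, with 3.62% of calls false. The interaction recovered 12%, 30%, 70% and 90% at those folds, with 3.81% of calls false, and the IL-10 negative contrast, in which no change was simulated, gave 0 calls. Only 200 genes were changed in the simulation, 50 per fold, and each averaged above 1 CPM in all 4 groups. In the real IL-10 positive contrast 55.6% of genes were called. The simulated rates therefore do not measure recovery or false calls at that extent of change, or for genes at lower levels.

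The members and the 34 gene lists were chosen with earlier results of these data known, so lists are described by counts and medians only. Named genes were the 12 highest and 12 lowest called genes without overlap whose higher group averaged at least 5 CPM, up to 4 called genes per list with the smallest p that average at least 1 CPM, 20 fixed genes and the 8 smallest interaction p-values at 5 CPM or more. Genes with only a Gm, LOC or Rik number were not named (2 skipped among the rises). Other list genes given with values were picked after their values were seen, and so were the olfactory and vomeronasal sums. Some named genes are not reported here. Promoter windows came from a RefSeq table. Alternatives were DESeq2 1.42.0, other size factors, no count filter, the 12 libraries of the contrast only, thinning to the smallest total, a replicate block, a stricter p of 0.01 and leaving out each replicate; a list count under each, a 5 CPM floor and a sterol motif (not reported here) were added after seeing the data.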

Additional observations from a re-analysis of the deposited data

Results flagged for a closer look

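For 24 named genes the Tr1 minus Th1 difference in IL-10 positive cells differed from that in IL-10 negative cells by edgeR's interaction term with Benjamini-Hochberg adjustment. Groups of 3 are too small for a test of single outlying libraries. The interaction (log2) was above 0 for these genes of the cell cycle: Ccnb2 4.75, Ccna2 4.11 and Ube2c 3.79. It was above 0 for the effector and surface genes Gzmb 3.46, Ccr7 3.41, Cxcr3 3.30, Folr4 1.60, Lag3 0.85 and Il27ra 0.42. It was above 0 for the factors Tcf7 3.39, Pou2af1 2.90, Nr1d2 1.84 and Tbx21 0.74, and for Zfp616 3.996. It was above 0 for Ephx1 2.99, Rnf144a 2.73, Gbp10 1.502 and Bambi-ps1 1.32. For Colec10 it was 3.61 and for Igf1 3.59, both low-level genes with Tr1 IL-10 positive replicate 18 above its group. It was below 0 for Csf1 -3.91, Tubb2a -2.90, Thy1 -1.47 and Furin -1.39.

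For Lag3, Tbx21 and Gzmb the positive interaction came with lower levels in Tr1 cells of both compartments, the gap being smaller in IL-10 positive cells. Summed olfactory and vomeronasal receptor CPM, given beside the low-level genes, was 1733, 1688 and 900.3 in Tr1 and 1757, 1633 and 1109 in Th1 IL-10 negative libraries, so the Tr1 excess of 2942, 2978 and 4333 against 885, 856 and 933 CPM was a feature of the IL-10 positive libraries. Its part in these interactions was not tested. Without 1 library, Colec10's interaction ranged from 2.85 to 5.68 and lost its call in 7 of 12 cases, as it did when thinned, with the contrast's libraries only and with the replicate block, and Igf1 stood at 4.82 when thinned, 4.20 without Th1 IL-10 positive replicate 5 and 2.85 without Tr1 IL-10 positive replicate 18. Pou2af1 stood at 3.72 and Zfp616 at 4.61 without Th1 IL-10 positive replicate 5.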

How the results depend on the processing

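Counts of called genes stayed within 1.5 times in 43 of 43 alternatives. List counts did so in 308 of 308, but only the direction with more calls was checked (lower where equal). Counts in the other direction were not checked. Il1r1, the 1 gene called higher among the Tr1 surface and secreted genes, lost its call in several alternatives. Leaving out 1 library gave 6372 to 6533 calls in IL-10 positive cells, 4606 to 4826 in IL-10 negative cells and 2026 to 2254 for the interaction. In IL-10 positive cells DESeq2 called 3566 higher and 3432 lower, and the fit without the count filter 3237 higher and 4435 lower. Without that filter the interaction split was 954 positive and 1576 negative. Replicate numbers are shared only by the 2 compartments of a culture. Over all genes tested, deviations of same-numbered libraries from their group means showed little correlation (-0.046 to 0.025). With 3 libraries per group this cannot decide whether a shared number means a shared culture. With the number as replicate block the interaction called 1938 genes, 963 positive and 975 negative. No paired analysis was possible for Tr1 against Th1 because those groups share no replicate number.

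Single named genes kept their sign and call in 2417 results, although some sizes moved by over 1.5 times, and there were 25 that lost a call, 6 that gained one and 18 that turned. Calls lost under an alternative were those of Cxcl10, Il1r1, Cd247 and Stat4 in IL-10 positive cells, Socs3 in IL-10 negative cells, and Colec10 and Il27ra in the interaction; Ahr and, in IL-10 negative cells, Stat4 gained one. In IL-10 positive cells Eomes turned to 0.26 when thinned and ranged from -0.85 to 0.44 when 1 library was left out (above 0 without Th1 replicate 5 or Tr1 replicate 17). Socs3 became -0.00 without the count filter, and Stat3 -0.07 without it and -0.00 to 0.14 without 1 library (lowest without Tr1 replicate 18). In IL-10 negative cells Ccr7 was 0.03 with DESeq2 and with median-of-ratios factors and 0.01 with the contrast's libraries only, and Igf1 was -0.28 when thinned. With 1 library left out there, Ccr7 ranged from -0.06 to 0.02 (above 0 without Th1 replicate 4 or Tr1 replicate 17), Colec10 from -1.06 (without Tr1 replicate 17) to 1.17, Eomes from -1.23 to 1.79 (without Th1 replicate 6), Stat3 from -0.03 to 0.09 (below 0 without Th1 replicate 4 or Tr1 replicate 18) and Zfp616 from -0.46 to 0.31 (above 0 without Th1 replicate 4 or Tr1 replicate 18). The cause was not tested. Each of these genes was uncalled there. Depth limits the low genes: 3 counts over the Tr1 group set the floor for genes at 0.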
